A study of Homo sapiens with 12 samples.

Results

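RIP-seq peaks on the mRNAs of 9 mTOR and AKT signalling genes were examined in HepG2, a human liver cancer line. In RIP-seq, an antibody pulls down 1 protein together with its RNA, and the recovered reads are compared with those of the input taken beforehand. The members were all entries of the 6 deposited peak lists named MTOR, RPTOR, RICTOR, RHEB, TSC1, TSC2, AKT1, AKT2 or RPS6KB1. All 9 names occurred, among 10830 genes that had a peak in any list, and they carried 178 of the 101848 peaks.

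The series comprised 6 RIP samples, 2 each for METTL16, eIF3a and eIF3b, and 6 matching inputs. HepG2 cells had been infected with pmiRNA1-3XFlag-METTL16, pSIN4-3XFlag-eIF3a or pSIN4-3XFlag-eIF3b, so each tagged protein was overexpressed in a stable line, and the sources used here do not say whether a line was 1 clone or a pool. Per the study's methods, cells were cross-linked with ultraviolet light. Per the labels, METTL16 and eIF3b were pulled down by their Flag tag and eIF3a by an antibody to eIF3a, whereas the deposited lists are all named for Flag, so antibody and protein cannot be told apart for eIF3a. Control pull-downs with an unspecific antibody were not analysed here. The study calls the replicates biological, but nothing says whether they came from separate cultures, so the spread between lists may in part be technical.

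METTL16 is a methyltransferase that places N6-methyladenosine on RNA. eIF3a and eIF3b are subunits of eIF3, the complex that brings mRNA to the small ribosomal subunit. mTOR is a protein kinase that works in a complex with Raptor (RPTOR), called mTORC1, or with Rictor (RICTOR), called mTORC2. Growth factors activate AKT1 and AKT2, kinases that phosphorylate tuberin (TSC2). Tuberin and hamartin (TSC1) form the complex that switches off the small GTPase RHEB, and RHEB bound to GTP activates mTORC1. S6 kinase 1 (RPS6KB1) is a substrate of mTORC1 and promotes protein synthesis. In hepatocytes this pathway carries insulin and amino acid signals to protein and lipid synthesis. The comparison asked which of these mRNAs METTL16 shared with eIF3a and eIF3b, and where on each mRNA the peaks lay.

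Some of the results rest on short stretches of coding sequence that lay under a peak in several lists at once, and these are shown first. All were read from GRCh38 on the mRNA strand, 5′ to 3′. The first group holds coding stretches on which all 6 lists met, on MTOR (chr1:11130566-11130626, minus strand, exon 39), TSC2 (chr16:2083792-2083816 and chr16:2084228-2084382, plus strand, exons 33 and 34) and AKT2 (chr19:40235890-40235981 and chr19:40235263-40235350, minus strand, exons 11 and 12). The lists also met on 31 coding bases in exon 13 and 1 in exon 5 of AKT2, which are not shown. Each stretch shown lay under a peak in both METTL16 lists, and the capitals mark the bases under a peak in all 6 lists.
MTOR exon 39: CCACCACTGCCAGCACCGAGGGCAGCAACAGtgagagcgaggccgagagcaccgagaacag
TSC2 exon 33: CAGGCGCACGGATGCCTACAGCAGG
TSC2 exon 34: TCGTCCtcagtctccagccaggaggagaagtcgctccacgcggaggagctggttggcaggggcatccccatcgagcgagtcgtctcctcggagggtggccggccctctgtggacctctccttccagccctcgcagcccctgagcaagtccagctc
AKT2 exon 11: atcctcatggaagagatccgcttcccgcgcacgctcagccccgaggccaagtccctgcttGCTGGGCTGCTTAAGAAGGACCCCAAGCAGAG
AKT2 exon 12: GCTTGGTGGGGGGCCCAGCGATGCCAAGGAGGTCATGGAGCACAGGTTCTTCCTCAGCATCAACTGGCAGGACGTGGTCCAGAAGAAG

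The second group shows coding stretches of AKT1 (chr14:104775652-104775799, minus strand, exon 6) and RPTOR (chr17:80957624-80957730, plus strand, exon 29). Both lay under a peak in both METTL16 lists, and the capitals mark the bases also under a peak in both eIF3b lists. The RPTOR stretch also lay under a peak in eIF3a replicate 1.
AKT1 exon 6: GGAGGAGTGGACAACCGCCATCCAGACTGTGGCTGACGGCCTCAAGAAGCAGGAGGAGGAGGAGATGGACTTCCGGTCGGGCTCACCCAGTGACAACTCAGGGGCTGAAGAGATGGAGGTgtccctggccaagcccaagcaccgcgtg
RPTOR exon 29: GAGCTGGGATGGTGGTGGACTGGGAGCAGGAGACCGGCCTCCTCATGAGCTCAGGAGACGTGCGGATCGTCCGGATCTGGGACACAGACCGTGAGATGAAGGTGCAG

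The third group comes from the members whose peaks were mostly or wholly from eIF3, RPS6KB1 (chr17:59893255-59893315, plus strand, exon 1) and TSC1 (chr9:132897184-132897345, minus strand, exon 22). Both stretches lay under a peak in both eIF3b lists. The capitals mark the bases also under a peak in METTL16 replicate 1 for RPS6KB1, and in eIF3a replicate 1 for TSC1.
RPS6KB1 exon 1: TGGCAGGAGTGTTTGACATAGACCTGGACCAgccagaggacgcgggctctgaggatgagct
TSC1 exon 22: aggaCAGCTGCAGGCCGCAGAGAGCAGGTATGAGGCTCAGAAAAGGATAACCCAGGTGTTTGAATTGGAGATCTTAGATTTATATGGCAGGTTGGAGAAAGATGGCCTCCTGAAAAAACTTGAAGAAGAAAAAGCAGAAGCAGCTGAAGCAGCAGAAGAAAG

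The lists held between 12921 and 21733 peaks over 3214692 to 6320283 exonic bases, with a median fold enrichment of RIP over input between 2.73 and 3.40. Averaged over peaks, GC content was 59.0% and 60.8% in the METTL16 lists, 53.7% and 53.1% in the eIF3a lists, and 58.1% and 54.1% in the eIF3b lists. Read counts were not used here, so the depth behind each peak is unknown, and a missing peak cannot be told apart from too few reads. Of 8 liver marker genes, 7 had a peak in at least 1 list and TTR had none. A peak in all 6 lists was found for 1 of them, against 25.2% of the 10830 genes with a peak in any list. A peak is an enrichment over input and gives no expression level, so these counts are no check on the cell type.

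Most members carried a peak in most lists. MTOR, RPTOR, TSC2, AKT1 and AKT2 had a peak in all 6, RPS6KB1 in 5, and RICTOR, RHEB and TSC1 in 4. METTL16 replicates 1 and 2 each held 7 of the 9 members, where 53.8% and 58.5% of all 10830 genes had a peak. eIF3a replicate 1 held all 9 and replicate 2 held 8, against 75.4% and 48.3% of all genes. eIF3b replicates 1 and 2 each held 8, against 74.5% and 69.9%.

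Binding was called where both replicate lists of a protein held a peak on the gene. METTL16 bound 6 of the 9 members, namely MTOR, RPTOR, RHEB, TSC2, AKT1 and AKT2, and 42.6% of all genes were called by the same rule. eIF3a bound 8, all except RHEB, against 42.4% of all genes. eIF3b bound 7, all except RICTOR and RHEB, against 60%. All 3 proteins bound 5 of the 9 (MTOR, RPTOR, TSC2, AKT1 and AKT2), against 25.2% of all genes. With 2 genes fewer, the METTL16 and eIF3b counts would lie close to their background shares. Long mRNAs were called more often, above all by eIF3a. With a split at 5000 bases of mRNA that was chosen after the data were seen, METTL16 bound 45.1% of the 3075 longer and 41.7% of the 7703 shorter genes, eIF3a 64.1% and 33.9%, and eIF3b 72% and 55.3%. All 3 proteins bound 37.5% and 20.4%, and 4 of the 7 longer and 1 of the 2 shorter members.

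The 178 member peaks were 60 to 1730 bases wide with a median of 210, and 86 of them lay within 1 exon. Their fold enrichment over input ranged from 1.31 to 22.5 with a median of 2.57. Only 35 reached 4-fold and 8 reached 10-fold. The peaks at 10-fold or above were on AKT1, AKT2 and RHEB. The map of all peaks shows each of them along its mRNA.

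**Figure D1:**
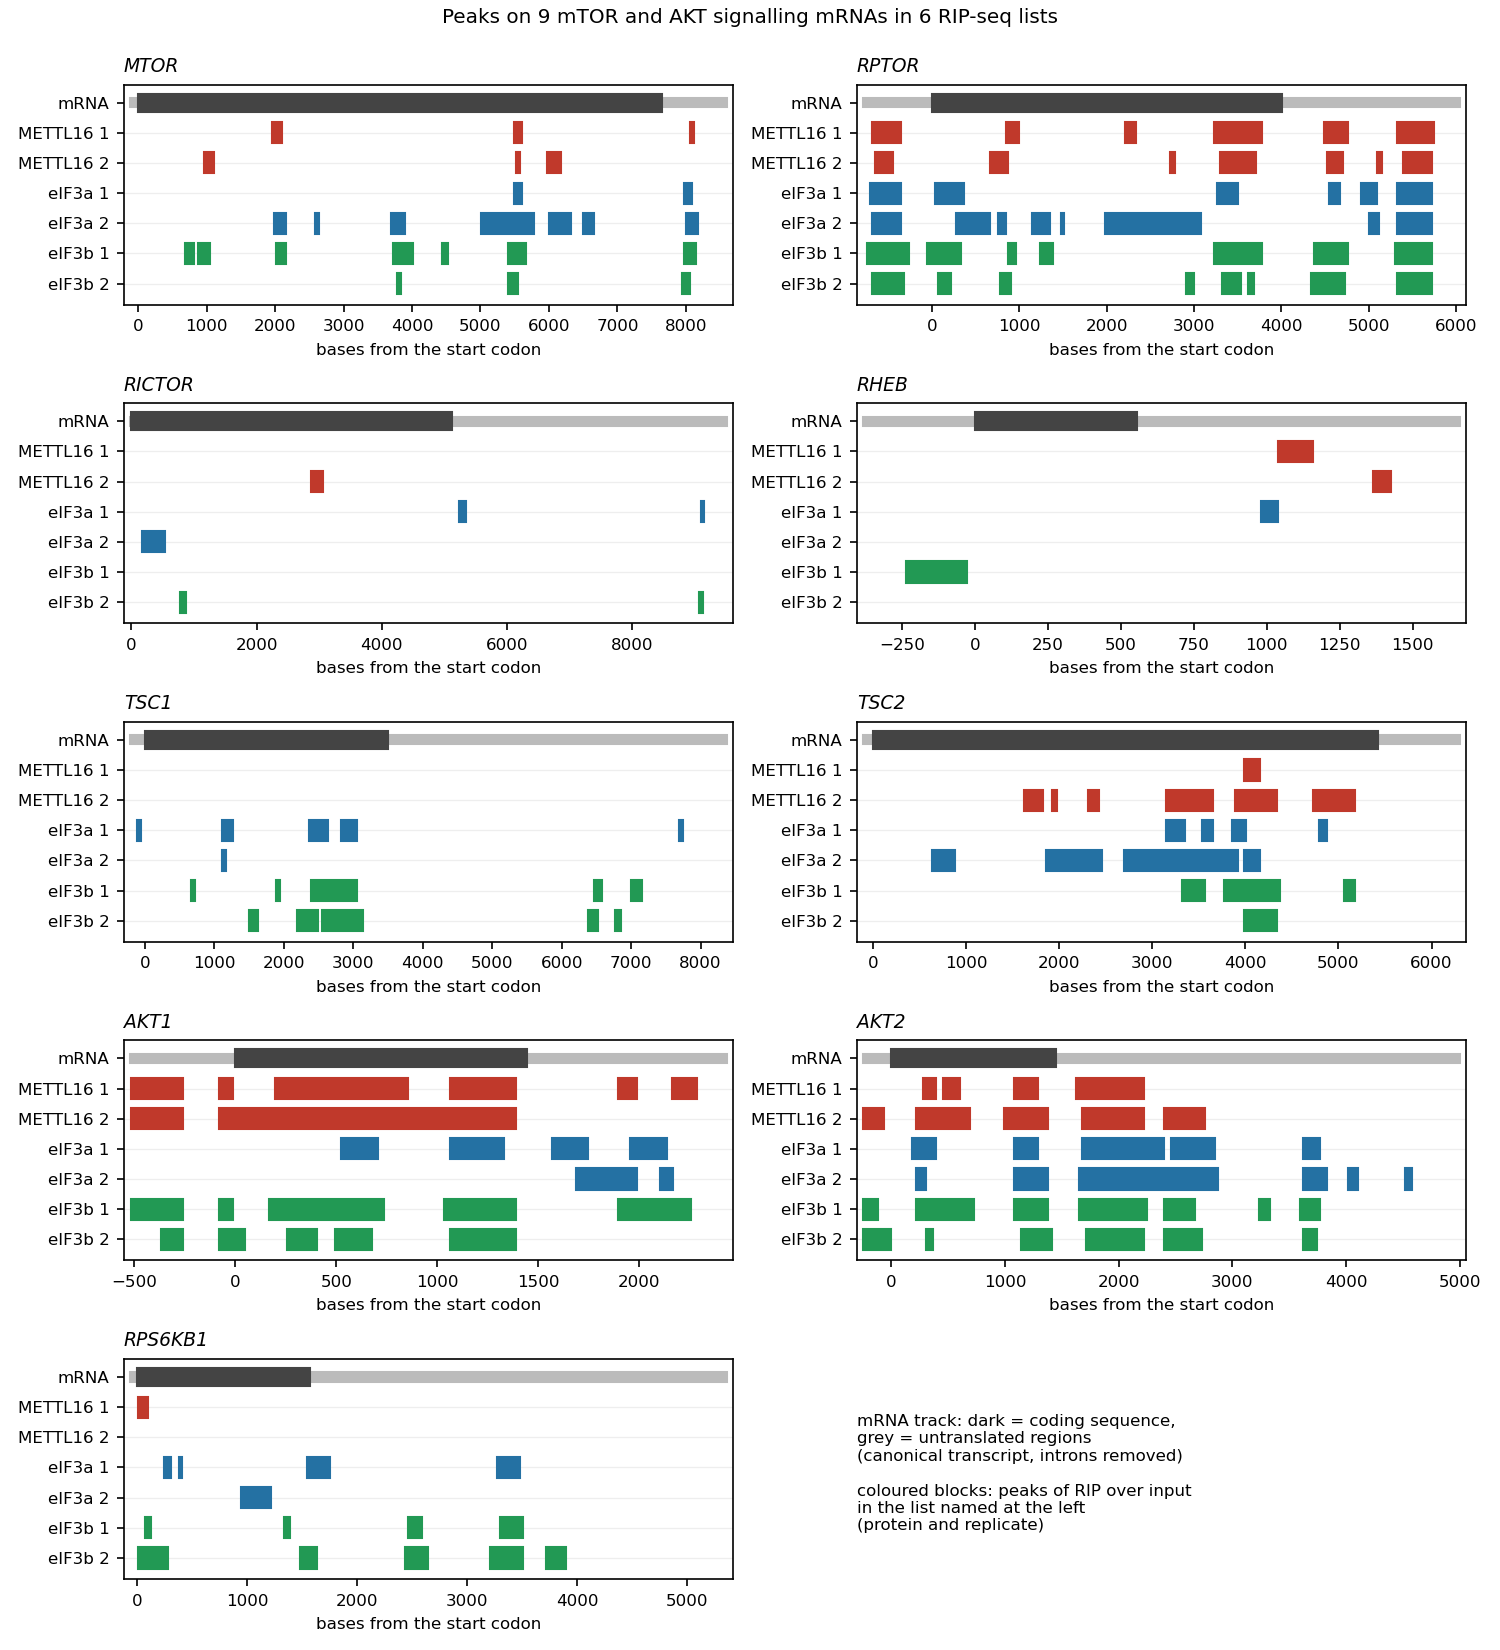
Peaks of the 6 lists (rows, METTL16 red, eIF3a blue, eIF3b green) along the canonical mRNA of each of the 9 genes, with introns removed and positions in bases from the start codon; the coding sequence is dark and the untranslated regions are grey. RPTOR and AKT2 carry overlapping peaks in all 6 lists, TSC1 has none in either METTL16 list, and RICTOR and RHEB carry a few peaks that rarely line up.

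Of the kinase and its partners, MTOR (ENSG00000198793.14, chr1:11106535-11262556, minus strand, 58 exons) had mostly narrow peaks of low enrichment. Peaks covered 332 and 423 of its 8721 mRNA bases in METTL16 replicates 1 and 2, 242 and 1896 in eIF3a replicates 1 and 2, and 1296 and 333 in eIF3b replicates 1 and 2. The highest fold per list was 2.56 and 3.24 for METTL16, 1.62 and 2.94 for eIF3a, and 2.29 and 1.90 for eIF3b. The groups overlapped on both measures, and the highest coverage came from 1 list, eIF3a replicate 2, in which a 781-base peak ran over exons 36 to 41. All 6 lists met on a stretch of 31 coding bases in exon 39 (chr1:11130596-11130626, the capitals of the MTOR sequence above). The METTL16 replicates had 61 bases in common on this mRNA, which was 8.79% of the 694 bases they covered together. Thus MTOR was called bound by METTL16 through peaks that mostly lay at different places in its replicates. A peak in the 3′ UTR, about the same part of exon 58 each time, was present in METTL16 replicate 1 and in all 4 eIF3 lists. Mean coverage was 378 ± 64.3 bases (SD, n = 2) for METTL16 and 942 ± 795 (SD, n = 4) for the eIF3 lists, a difference of -564 bases that lay within the spread of the eIF3 lists (exact permutation test over 15 arrangements, two-sided, p = 0.467, adjusted p = 0.842). Without eIF3a replicate 2 it was -246 bases.

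RPTOR (ENSG00000141564.16, chr17:80544819-80966371, plus strand, 34 exons) encodes Raptor, the subunit that recruits mTORC1 substrates. It carried 41 peaks, the most of any member. Coverage was 1832 and 1474 bases in the METTL16 lists, 1622 and 2673 in the eIF3a lists, and 2463 and 1776 in the eIF3b lists, between 21.6% and 39.1% of its mRNA. The highest fold was 5.57 and 3.79 for METTL16, 4.35 and 9.72 for eIF3a, and 4.45 and 3.50 for eIF3b. No group stood apart on either measure. The peak at 9.72-fold was 1139 coding bases wide, lay between exons 13 and 26, and was seen in eIF3a replicate 2. It placed RPTOR at rank 267 of 5226 genes by p-value in that list, against ranks between 1100 and 2085 in the other 5.

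Both ends of the RPTOR mRNA were under peaks in every list. The 6 lists met on 210 bases of the 5′ UTR in exon 1 (chr17:80544975-80545184) and on 330 bases of the 3′ UTR in exon 34 (chr17:80965714-80966043), and they met on no coding base. A coding segment over exons 28 to 30 lay at least in part under peaks of both METTL16 and both eIF3b lists and of eIF3a replicate 1, but not of eIF3a replicate 2. Exon 29 (shown above) was wholly covered in both METTL16 lists, both eIF3b lists and eIF3a replicate 1. METTL16 replicates shared 54.9% of the bases they covered together, eIF3b replicates 58.5% and eIF3a replicates 26.6%. The annotation places an overlapping protein coding transcript of 60 shared bases on the same strand at the 5′ peak, and antisense lncRNAs under 57 to 71 bases of coding peaks. Whether peak calling used the strand is not given in the sources used here, so reads of these genes cannot be told apart. Coverage differed by -480 bases between METTL16 (1653 ± 253, SD, n = 2) and the eIF3 lists (2134 ± 513, SD, n = 4; exact permutation p = 0.267, adjusted p = 0.77), and the direction turned when coverage was scaled by the size of each list (104 bases per 1000000 covered bases of the list).

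RICTOR (ENSG00000164327.14, chr5:38937920-39074402, minus strand, 38 exons), the defining subunit of mTORC2, had the second longest 3′ UTR of the members and only 6 peaks. Coverage was 0 and 180 bases in the METTL16 lists, 182 and 360 in the eIF3a lists, and 0 and 152 in the eIF3b lists. The highest fold of any of them was 2.94. Replicates of no protein shared a single covered base. For eIF3a, which alone was called as binding RICTOR, replicate 1 had a pair of 3′ UTR peaks (121 and 61 bases) and replicate 2 a coding peak of 360 bases over exons 3 to 7. The narrow 3′ UTR peak of eIF3a replicate 1 (chr5:38938280-38938340) and that of eIF3b replicate 2 (chr5:38938310-38938370) overlapped near the end of the mRNA. Mean coverage differed by -83.5 bases (exact permutation p = 0.533, adjusted p = 0.895), and the sign turned against eIF3b alone (14 bases) or without METTL16 replicate 1 (6.5 bases).

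Upstream of mTORC1, RHEB (ENSG00000106615.10, chr7:151466012-151520120, minus strand, 8 exons), the small GTPase, had 1 peak in each of 4 lists. In METTL16 replicates 1 and 2 and eIF3a replicate 1, it lay in the 3′ UTR, was 119, 60 and 60 bases wide, and had a fold enrichment of 15.9, 10.7 and 19.8. In eIF3b replicate 1 it lay in the 5′ UTR, was 208 bases wide and reached 2.56-fold. eIF3a replicate 2 and eIF3b replicate 2 held no RHEB peak. The 3′ UTR peaks thus combined some of the highest folds of all members with little statistical support. Their deposited p-values of 0.00031, 7.1e-05 and 0.0003 placed RHEB at ranks 5150 of 5829, 4962 of 6337 and 6642 of 8166 genes. The METTL16 replicates shared no covered base on RHEB, although the gene counts as bound. Mean coverage was 89.5 ± 41.7 bases (SD, n = 2) for METTL16 and 67.0 ± 98.2 (SD, n = 4) for the eIF3 lists (exact permutation p = 0.933, adjusted p = 1), and the sign of this 22.5-base difference turned without METTL16 replicate 1 (-7 bases) and against eIF3b alone (-14.5 bases).

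**Figure D2:**
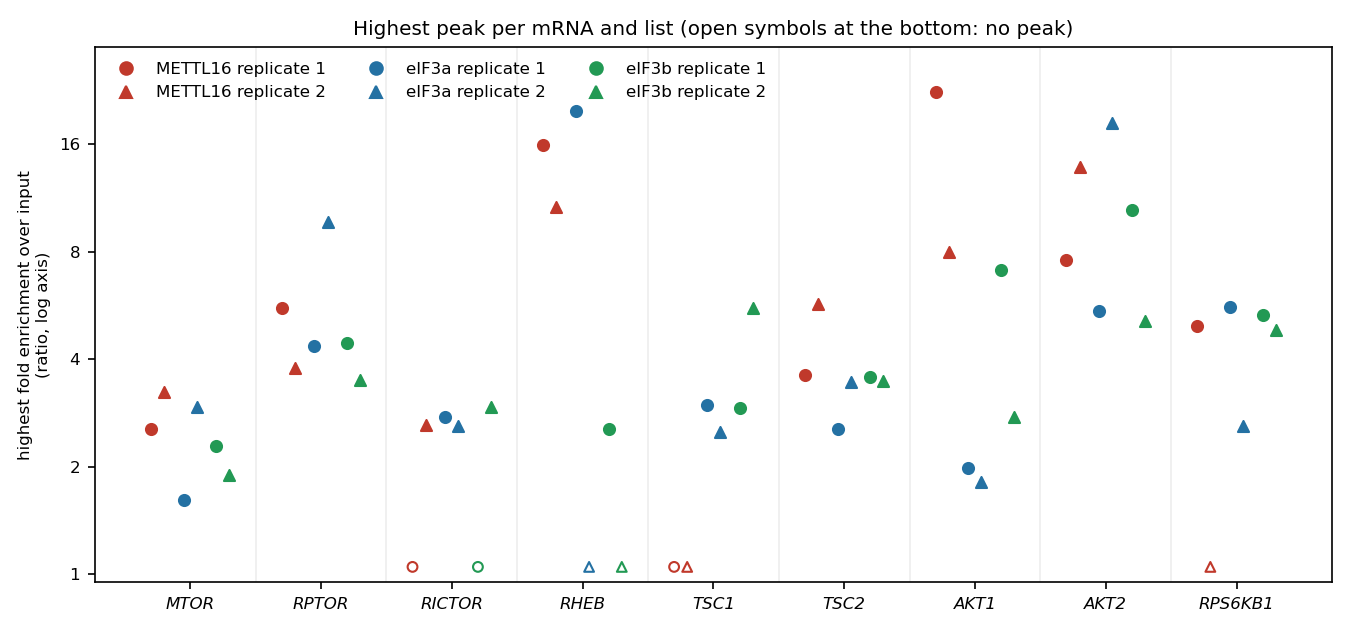
Fold enrichment over input of the strongest peak on each mRNA (log axis), with METTL16 in red, eIF3a in blue and eIF3b in green, circles for replicate 1 and triangles for replicate 2; open symbols at the bottom mark lists with no peak. AKT2 lies above 4-fold in all 6 lists, AKT1 is highest in METTL16 replicate 1 at 22.5-fold, and the RHEB values of 10.7 to 19.8 come from peaks of 60 to 119 bases.

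TSC1 (ENSG00000165699.15, chr9:132891348-132946874, minus strand, 23 exons), which encodes hamartin, had a peak in all 4 eIF3 lists. Neither METTL16 list held a peak on it. The share of all genes with this pattern of presence was not taken. Coverage was 783 and 61 bases in eIF3a replicates 1 and 2, and 1052 and 1260 bases in eIF3b replicates 1 and 2, with highest folds of 2.98, 2.51, 2.93 and 5.58. The weakest of these was eIF3a replicate 2, with 1 peak of 61 bases. By p-value TSC1 ranked 4236 of 8166 and 4569 of 5226 genes in the eIF3a lists, and 4754 of 8063 and 4637 of 7570 in the eIF3b lists. The eIF3b replicates met on 660 bases, of which 600 were coding (exons 19 to 23) and 60 lay in the 3′ UTR. eIF3a replicate 1 covered much of the same coding segment, including exon 22 above, but the eIF3a replicates had only 61 bases in common, at the junction of exons 11 and 12, and no base was under a peak in all 4 eIF3 lists. Both METTL16 lists lay below all 4 eIF3 lists for TSC1 and RPS6KB1, 2 of the 9 members, against 15.4% of all genes. Both METTL16 lists lay above all 4 eIF3 lists for 0 of 9 members, against 4.09% of all genes. These counts depend on scale. Per 1000000 covered bases of the list, METTL16 lay above for 1 member, AKT1, against 14.7% of all genes, and below for TSC1 and RPS6KB1 again, against 9.74%. For TSC1 the difference was -789 bases (0 for METTL16, 789 ± 523 for eIF3, SD, n = 4; exact permutation p = 0.133, adjusted p = 0.744). Over all 10830 genes the median difference was -74.2 bases, and no gene could reach 0.05 because the smallest p of this design is 0.0667.

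TSC2 (ENSG00000103197.19, chr16:2047967-2089491, plus strand, 42 exons), which encodes tuberin, the GTPase activator toward RHEB, was covered in coding sequence only. None of its 19 peaks touched an untranslated region. Coverage was 180 and 1799 bases in the METTL16 lists, 571 and 2244 in the eIF3a lists, and 959 and 360 in the eIF3b lists, with highest folds of 3.63, 5.72, 2.55, 3.47, 3.58 and 3.49 in the same order. Replicates of METTL16 and of eIF3a stood almost as far apart as any of the 6 lists. The one peak of METTL16 replicate 1 and a peak of eIF3a replicate 2 had the same ends (chr16:2083792-2084382, 180 exonic bases in exons 33 and 34), and every other list had a peak over part or all of it. The 6 lists met on 31 bases across this exon junction. In eIF3a replicate 2, a peak of 1226 bases ran from exon 24 to exon 33. METTL16 and eIF3 differed by -44 bases (990 ± 1145, SD, n = 2, against 1034 ± 844, SD, n = 4; exact permutation p = 1, adjusted p = 1). The sign of this difference turned under 6 of the alternatives given in the closing section, with values from 92.3 to 766.

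**Figure D3:**
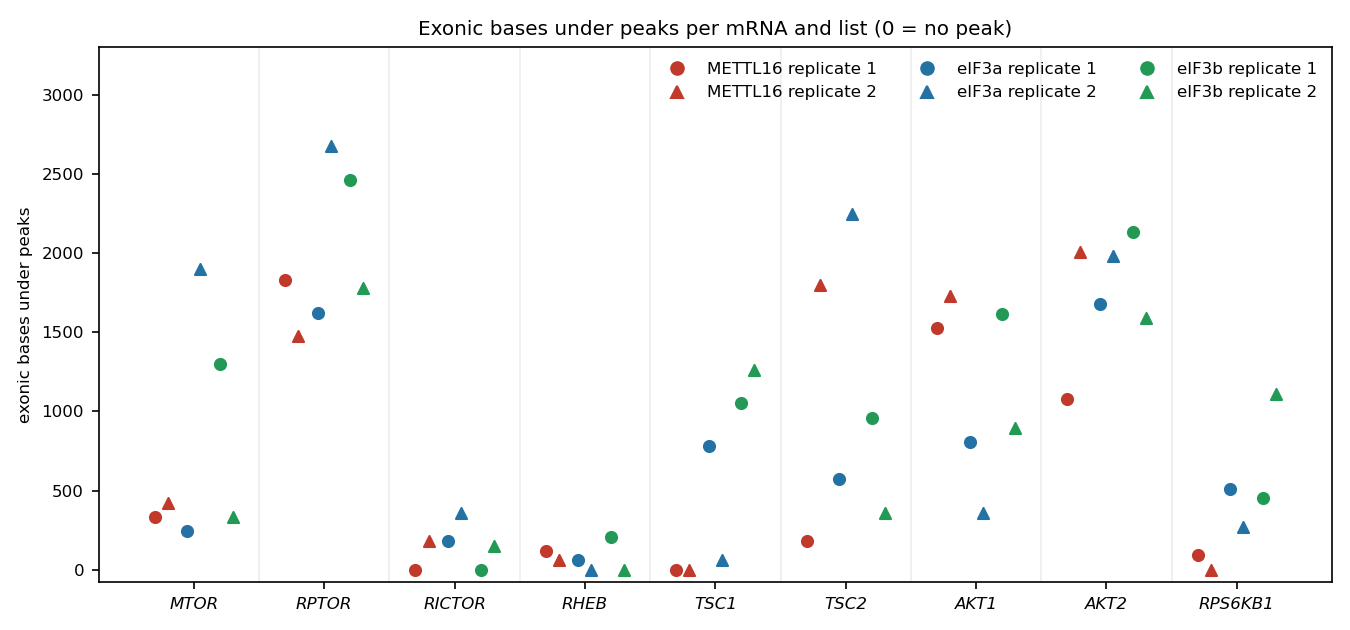
Exonic bases under peaks for each mRNA and list, with the same colours and symbols as for the fold enrichment and 0 for a list without a peak. Both METTL16 values lie below all 4 eIF3 values for TSC1 and RPS6KB1, replicates are far apart for TSC2 (180 and 1799 bases for METTL16), and AKT1 is highest in both METTL16 lists and eIF3b replicate 1.

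AKT1 (ENSG00000142208.18, chr14:104769349-104795751, minus strand, 15 exons), the kinase that relays growth factor signals to TSC2, had the most extensive METTL16 peaks relative to its length. They covered 1525 and 1730 bases in METTL16 replicates 1 and 2, which was 51.6% and 58.5% of the mRNA, 808 and 360 bases in the eIF3a lists, and 1614 and 897 bases in the eIF3b lists. The highest fold was 22.5 and 8.01 for METTL16, 1.99 and 1.81 for eIF3a, and 7.11 and 2.76 for eIF3b. METTL16 was thus high on both measures, eIF3a was low on both, and eIF3b replicate 1 lay between the METTL16 replicates in coverage. The share of all genes whose highest folds separate in this way was not taken. The peak of smallest p-value was at 2.59 and 8.01-fold in the METTL16 lists, 1.99 and 1.81-fold in the eIF3a lists, and 2.92 and 1.73-fold in the eIF3b lists. On this measure METTL16 and eIF3b overlapped. By p-value AKT1 ranked 462 of 5829 and 208 of 6337 genes in the METTL16 lists, 1639 of 8166 and 3714 of 5226 in the eIF3a lists, and 638 of 8063 and 2237 of 7570 in the eIF3b lists.

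The AKT1 peaks also lay in different parts of the mRNA. The 5′ UTR held 329 and 339 covered bases in the METTL16 lists, 0 and 0 in the eIF3a lists, and 329 and 190 in the eIF3b lists. The peak at 22.5-fold was this 5′ UTR peak, in exons 1 and 3, and a peak with the same ends (chr14:104792654-104795743) reached 7.11-fold in eIF3b replicate 1. METTL16 replicate 2 had 1 peak of 1730 bases that ran from the 5′ UTR through the coding sequence at 8.01-fold. METTL16 replicates shared 1314 bases, 67.7% of those they covered together, and 985 of these were coding. eIF3b replicates shared 838 bases (50.1%), all in the 5′ UTR and coding sequence. eIF3a replicates shared 122 bases (11.7%), all in the 3′ UTR, and no base of AKT1 was under a peak in all 6 lists. A lncRNA gene on the opposite strand overlaps the 3′ UTR and contains 32 to 299 bases of each of the 4 eIF3a peaks there, 91 of a METTL16 replicate 1 peak and 241 of an eIF3b replicate 1 peak, so those reads cannot be assigned to AKT1 alone.

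Base composition moved with this pattern. The AKT1 5′ UTR is 77.0% GC against 59.7% for its coding sequence and 55.0% for its 3′ UTR, and mean GC of the AKT1 peaks was 65.4% and 64.1% in the METTL16 lists, 55.4% and 58.6% in the eIF3a lists, and 63.9% and 64.0% in the eIF3b lists. Over all peaks the eIF3a lists also had the lowest GC, followed by eIF3b replicate 2. The part of GC content in the AKT1 result was not tested. Mean coverage was 1628 ± 145 bases (SD, n = 2) for METTL16 and 920 ± 519 (SD, n = 4) for the eIF3 lists, a difference of 708 bases that kept its sign under every alternative tried and did not pass the test (exact permutation p = 0.267, adjusted p = 0.77). The eIF3 lists cover more bases in all than the METTL16 lists, so coverage was also taken per 1000000 covered bases of the list. On that scale AKT1 had 474 and 510 bases in the METTL16 lists, 153 and 76.5 in the eIF3a lists, and 255 and 166 in the eIF3b lists. Both METTL16 lists then lay above all 4 eIF3 lists, with a difference of 330 and the smallest p the design allows (exact permutation p = 0.0667). This p was not adjusted, and 14.7% of all genes had both METTL16 lists above all 4 eIF3 lists on this scale.

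AKT2 (ENSG00000105221.18, chr19:40230317-40285536, minus strand, 14 exons), the AKT isoform prominent in insulin-responsive tissues, had a strong peak in every list. Coverage was 1081 and 2009 bases for METTL16, 1680 and 1979 for eIF3a, and 2130 and 1591 for eIF3b, and the ranges overlapped. The highest fold was 7.59 and 13.8, 5.46 and 18.4, and 10.5 and 5.14 for the same lists, so AKT2 was the only member above 4-fold in all 6. The strongest peaks lay in the 3′ UTR, which makes up 67.7% of this mRNA. In eIF3a replicate 2, the 18.4-fold peak was 91 bases wide and lay 4013 to 4103 bases after the start codon, where no other list had a peak.

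All 6 lists met on 662 bases of AKT2, the largest such overlap among the members. Of these, 510 formed 1 block in exon 14 in the 3′ UTR (chr19:40233097-40233606), with folds of 7.59, 9.87, 3.72, 5.01, 5.64 and 3.93 in the order of the lists, and 152 were coding, nearly all in exons 11 to 13. Exon 12, shown above, lay wholly under a peak in every list. Replicates shared 49.4% (METTL16), 74.3% (eIF3a) and 59.0% (eIF3b) of the bases they covered together. A peak in the 5′ UTR was present in METTL16 replicate 2 and both eIF3b lists, at 4.76, 3.71 and 3.85-fold, and in neither eIF3a list. METTL16 and eIF3 coverage differed by -300 bases (1545 ± 656, SD, n = 2, against 1845 ± 252, SD, n = 4; exact permutation p = 0.467, adjusted p = 0.842), and the sign turned to 300 with peaks of at least 4-fold, 308 with the 5000 best peaks per list, 164 without METTL16 replicate 1 and 122 per 1000000 covered bases of the list.

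**Figure D4:**
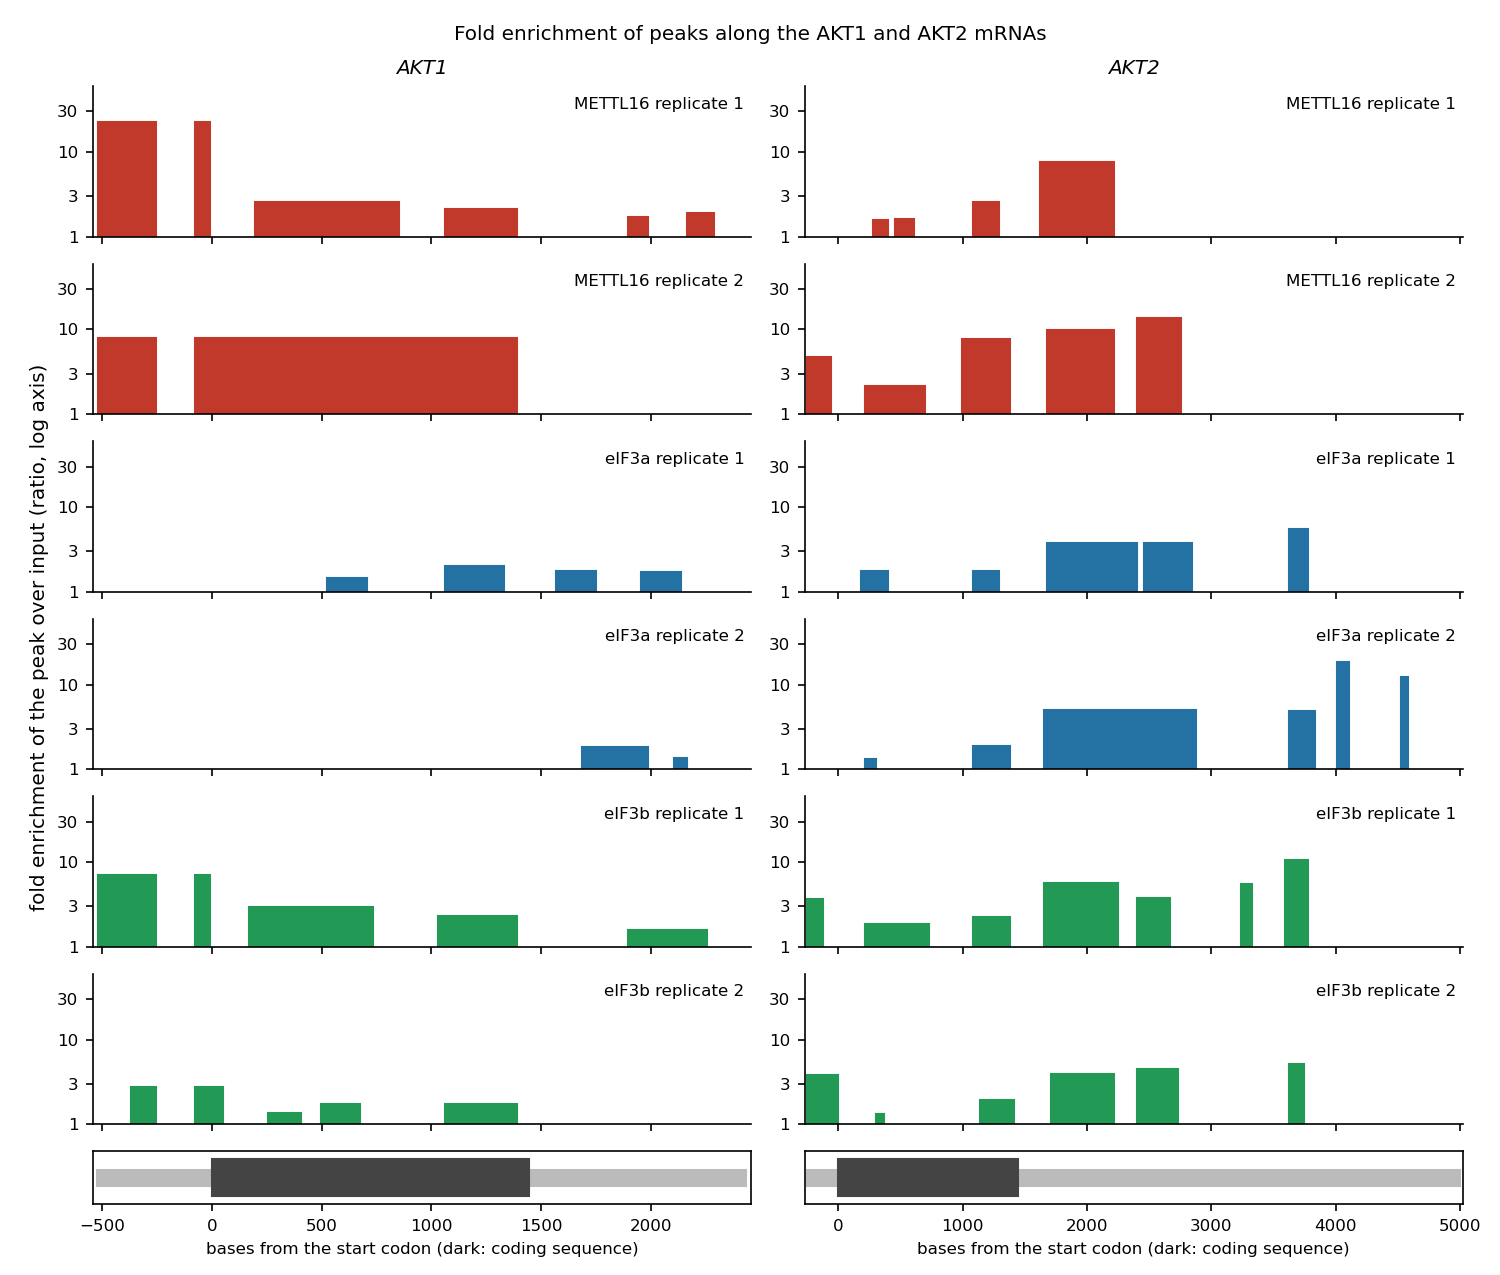
Fold enrichment of each peak (bar height on a log axis that starts at 1, no enrichment) along the AKT1 and AKT2 mRNAs in bases from the start codon, for each of the 6 lists, with the coding sequence dark in the bottom track. METTL16 and eIF3b peaks reach into the AKT1 5′ UTR (22.5-fold in METTL16 replicate 1) while eIF3a peaks do not, and AKT2 shows a 3′ UTR peak just after the coding sequence in all 6 lists.

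RPS6KB1 (ENSG00000108443.14, chr17:59893046-59950574, plus strand, 15 exons), the kinase that carries the mTORC1 signal to the ribosome, was mostly an eIF3 member. METTL16 replicate 1 held 1 peak of 91 bases at the start of the coding sequence in exon 1, at 4.97-fold and rank 5141 of 5829 genes, and METTL16 replicate 2 held none. Coverage was 511 and 270 bases in the eIF3a lists and 452 and 1110 bases in the eIF3b lists, with highest folds of 5.61, 2.60, 5.32 and 4.84. In coverage all 4 eIF3 lists lay above both METTL16 lists, whereas the fold of METTL16 replicate 1 lay within the range of the eIF3 folds. A 3′ UTR peak of 210, 210 and 299 bases, starting 3274, 3303 and 3214 bases after the start codon, was the strongest in eIF3a replicate 1 and both eIF3b lists. eIF3a replicate 2 had a coding peak of 270 bases over exons 10 to 13 in its place and shared no base with replicate 1. Another protein coding gene on the same strand contains 24 bases of this coding peak and 7 of an eIF3b replicate 1 peak. Reads on those bases cannot be assigned to RPS6KB1 alone. The eIF3b replicates shared 391 bases, of which 61 were in exon 1 (sequence above), where the METTL16 peak overlapped them. Coverage was 45.5 ± 64.3 bases (SD, n = 2) for METTL16 and 586 ± 364 (SD, n = 4) for eIF3 (difference -540, exact permutation p = 0.2, adjusted p = 0.77).

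By region, member peaks of METTL16 lay 62.4 ± 11% in coding sequence, 11.2 ± 2.18% in the 5′ UTR and 26.3 ± 8.83% in the 3′ UTR (SD, n = 2 lists). For eIF3a the shares were 57.5 ± 17.4%, 4.93 ± 2.23% and 37.5 ± 15.1%, and for eIF3b 53.8 ± 5.28%, 11.3 ± 0.797% and 34.8 ± 6.07%. The coding and 3′ UTR shares overlapped between proteins. The 5′ UTR shares were 12.8% and 9.69% for METTL16 and 11.9% and 10.8% for eIF3b, all above 6.50% and 3.35% for eIF3a. These shares rested on few members. The METTL16 bases came from RPTOR and AKT1 in replicate 1 (330 and 329) and from RPTOR, AKT1 and AKT2 in replicate 2 (210, 339 and 190). Those of eIF3a came from RPTOR (360 and 330), with 60 from TSC1 in replicate 1. MTOR, RICTOR, TSC2 and RPS6KB1 had no 5′ UTR base under a peak in any list. Over all peaks the 5′ UTR shares were lower, at 6.02%, 3.07% and 5.7% for METTL16, eIF3a and eIF3b, with eIF3a again the lowest. The coding shares over all peaks were higher than those of the members, at 67.2%, 62.1% and 64.2% in the same order. The member mRNAs themselves are 4.45% 5′ UTR, 55.1% coding and 40.5% 3′ UTR. No test was made of these shares.

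Where peaks lay was next compared between lists with the Jaccard index, the bases under a peak in both lists divided by those under a peak in either. The 5 members with a peak in all 6 lists could be compared, among 2730 such genes. For RPTOR the mean index was 0.467 within proteins and 0.406 between proteins, and the true pairing of replicates ranked first among the 15 ways to pair the lists (one-sided exact permutation p = 0.0667, the smallest this design allows, adjusted p = 0.487). The first rank was lost without METTL16 replicate 1 (p = 0.267), METTL16 replicate 2 (p = 0.333), eIF3b replicate 1 (p = 0.333) or eIF3b replicate 2 (p = 0.4) in the same exact permutation test, and also with the 5000 peaks per list of smallest p-value (p = 0.467) and with the share of peaks that overlap by at least 50% in place of the index (p = 0.4). With all lists, it was the only one of the 5, against 13.7% of all genes. The indices within and between proteins were 0.432 and 0.310 for AKT1, 0.609 and 0.509 for AKT2, 0.217 and 0.208 for TSC2 and 0.142 and 0.181 for MTOR (exact permutation p = 0.133, 0.2, 0.4 and 0.667, adjusted p = 0.507, 0.537, 0.658 and 0.798). Medians over all 2730 genes were 0.388 and 0.338. In each of the 5 members, the highest index of all joined lists of different proteins. Such pairs outnumber the pairs of replicates, and the share of all genes with this pattern was not taken. Where the highest index fell thus does not tell whether positions follow the protein. METTL16 replicate 1 and eIF3b replicate 1 reached 0.780 on AKT1, above the METTL16 replicates at 0.677. On TSC2 the highest was 0.5, between METTL16 replicate 1 and eIF3b replicate 2.

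**Figure D5:**
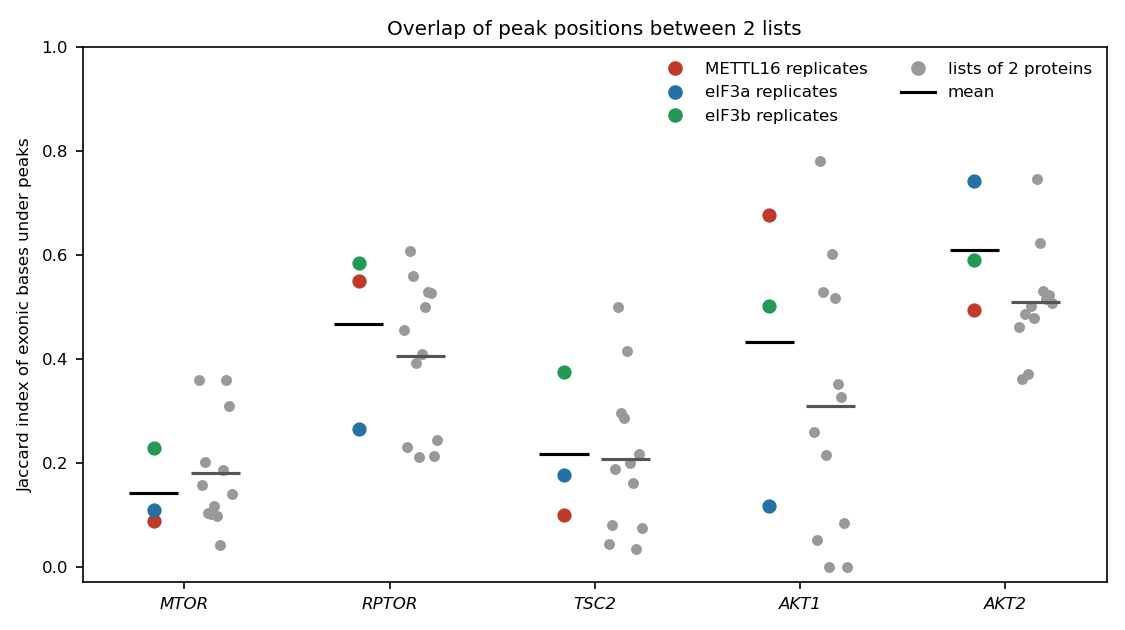
Jaccard index of exonic bases under peaks for pairs of lists, for the 5 mRNAs with a peak in all 6 lists; coloured points are replicates of 1 protein, grey points are the 12 pairs of lists of different proteins, and lines are means. Indices are lowest for MTOR and TSC2 and highest for AKT2, and all coloured points lie within the range of the grey points of the same mRNA. The grey points outnumber the coloured ones, so this range does not compare pairs within proteins with pairs between them.

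The motif ACAGAGA, known from the site that METTL16 methylates in U6 small nuclear RNA, was searched on the mRNA strand alone. It occurs 4 times in the RICTOR mRNA, 1 time each in AKT2 and RPS6KB1, and not in the other 6 members. None of the 21 and 24 member peaks of METTL16 replicates 1 and 2 contained it, where 3.31% and 3.27% of all peaks in those lists did. One member peak had it, that of eIF3b replicate 2 over exons 9 and 10 of RICTOR. With such low shares over all peaks, the absence from so few member peaks is no result about the members. These letters were also absent from each of the sequences shown above, as they had to be where the whole mRNA lacks them.

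Around these members, 69 further genes of the pathway were looked up. Of these, 60 had a peak in at least 1 list, 18 in all 6 and 9 in none. Of the 60, METTL16 bound 30, eIF3a 24, eIF3b 41 and all 3 proteins 18, and the shares given above for the members, which are of genes with a peak in any list, are the background here too. The eIF3a count was 40 when replicate 1 alone decided, where 75.4% of all genes had a peak. By group, only genes with a peak in any list are counted, and all 3 proteins bound 25.2% of all such genes. They bound 1 of 6 further mTORC1 and mTORC2 subunits and assembly factors, and 3 of 9 genes of AKT, PI3K and their regulators. They also bound 3 of 5 receptors and adaptors and 5 of 23 genes of the amino acid arm. For the energy and stress arm it was 1 of 4, and for substrates and effectors 5 of 12. Of the 2 relatives of the TSC complex and RHEB, 1 had a peak and was not bound by all 3.

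The 10 genes with a peak in all 6 lists and at least 4-fold enrichment in 4 or more lists came from most of these groups, and 9 are described here. IGF1R, the receptor of insulin-like growth factor, reached 60.2 and 48.3-fold for eIF3b against 14.2 and 8.93-fold for METTL16 and 6.99 and 7.85-fold for eIF3a, without overlap. STK11, the kinase upstream of AMPK, was at 27.8 and 15.5-fold for METTL16, 3.41 and 3.15-fold for eIF3a, and 19.9 and 5.17-fold for eIF3b, with eIF3a lowest as for AKT1. TELO2, which helps to assemble mTOR complexes, was at 14.6 and 17.9-fold for METTL16, above 12.4 and 4.44-fold for eIF3a and 6.18 and 2.79-fold for eIF3b. ULK1, the autophagy kinase inhibited by mTORC1, lay between 4.28 and 16.7-fold in all lists. Further ones were PIK3R2, a regulatory subunit of PI3K, PHLPP1, a phosphatase of AKT, EIF4EBP2, a translation repressor that mTORC1 phosphorylates, and FOXO1 and FOXO3, transcription factors that AKT phosphorylates. FOXO3 ranged from 4.50 to 43.2-fold. No list had a peak on DEPTOR, PRR5L, TBC1D7, INPP4B, RRAGD, LAMTOR2, LAMTOR5, ITFG2 or SLC38A9. These folds are those of the strongest peak per gene, and no test was made between proteins for these genes. The share of all genes that meet the 4-fold rule, or whose folds separate by protein, was not taken. No separation of folds is thus read as particular to these genes.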

How the data were processed

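Of 12 HepG2 samples, the 6 RIP samples had peak lists and were analysed. The 6 inputs entered through the authors' peak calling. Per the study's methods, the authors depleted rRNA, aligned the reads with STAR (GRCh38) and ran exomePeak, default parameters, on RIP against input. Versions, the annotation used and the pairing with inputs are not given in the sources used here. The authors deposited, per peak, the exonic blocks, a p-value, a fold enrichment (a ratio of RIP to input) and log10 p and FDR columns, used here as a score for ranking. No read counts were used, so depth is unknown.

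Peaks were placed on canonical GENCODE 44 transcripts with Python 3.11.15, numpy 2.4.6, pandas 2.3.3 and scipy 1.17.1. Of 10830 gene names, 10325 matched a current and 466 an older symbol. Coordinates count from 1. Covered bases of METTL16 (2 lists) and eIF3 (4 lists) were compared over all 15 arrangements, two-sided, and Jaccard indices over all 15 pairings, one-sided, for every gene, with Benjamini-Hochberg adjustment over all genes. Scripts were tested on simulated data. All members were named, and pathway genes by the rule stated with them or for having no peak. Values of 1 pathway gene that met this rule are not reported here, and the counts include it. The members and gene lists were chosen with earlier results of these data known. Alternatives were stricter peak sets, either replicate, each replicate left out, eIF3b alone, scaling by list size, a 50% overlap, peak centres and a replicate block.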

Additional observations from a re-analysis of the deposited data

How the results depend on the processing

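Of 188 alternative values, 144 kept their direction or lay close to the reported one, 21 counts moved by more than 1.5 times and 23 differences changed sign. The 144 include the coverage differences under the replicate block, which cannot change them. No p crossed 0.05, which this design cannot reach. With peaks of at least 4-fold, METTL16, eIF3a and eIF3b bound 3, 2 and 2 members, and 1 (AKT2) was bound by all 3 proteins. In the pathway list, 12, 7, 14 and 4 genes were bound. With the 5000 peaks per list of smallest p-value, 3, 3 and 3 members were bound by METTL16, eIF3a and eIF3b and 2 by all 3, and 14, 13, 16 and 9 pathway genes. A peak in either replicate gave 8 members bound by all 3, and 47 (METTL16), 43 (eIF3a) and 34 (all 3 proteins) pathway genes. Leaving out each list in turn gave 7 members for METTL16, 8 to 9 for eIF3a, 8 for eIF3b and 5 to 6 for all 3, and 36 to 41, 27 to 40, 43 to 51 and 18 to 25 pathway genes, with 40 for eIF3a without eIF3a replicate 2. Shares of all genes were taken for single lists, as given above, but not for the other rules here. The counts under those rules are thus no result about the members or the pathway genes.

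The coverage difference of METTL16 minus eIF3 changed sign as follows, and the cause was not tested. It was 479 bases for TSC2 and 300 for AKT2 at 4-fold, and 172 and 308 with the 5000 best peaks. Without METTL16 replicate 1 it was 6.5 for RICTOR, -7 for RHEB, 766 for TSC2 and 164 for AKT2, and without eIF3a replicate 2 it was 360 for TSC2. Against eIF3b alone it was 14 for RICTOR, -14.5 for RHEB and 330 for TSC2. Per 1000000 covered bases of the list it was 104 for RPTOR, 92.3 for TSC2 and 122 for AKT2. Over all lists left out, differences ranged from -798 to -246 for MTOR, -660 to -301 for RPTOR, -174 to 6.5 for RICTOR, -7 to 69.5 for RHEB, -854 to 766 for TSC2 and -764 to 164 for AKT2. The overlap difference within minus between proteins became -0.0741 and -0.0727 for AKT2 under the stricter peak sets. For MTOR it became 0.000335 without METTL16 replicate 1, 0.0126 without eIF3a replicate 1 and 0.0556 with the 50% overlap. For TSC2 it became -0.00755, -0.0509 and -0.0725 without eIF3a replicate 1, eIF3b replicate 1 and eIF3b replicate 2, and over all lists left out it ran from 0.00502 to 0.196 for RPTOR, 0.0113 to 0.268 for AKT1, 0.0125 to 0.197 for AKT2, -0.092 to 0.0126 for MTOR and from -0.0725 to 0.114 for TSC2.

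Deviations of same-numbered replicates were not positively related between proteins (r = -0.091, -0.205 and -0.0925 over 10830 genes). Whether same-numbered replicates shared a batch cannot be told from these correlations. The replicate block left coverage differences as they were (708 for AKT1, exact permutation p = 0.333) and gave overlap differences of 0.0423 for RPTOR and 0.113 for AKT1, without a change of sign in any member. With peaks of at least 4-fold, AKT2 alone kept a peak in all 6 lists, so the overlap of the other members could not be computed. Peaks of a member may rest on few reads where it is little expressed, which these lists cannot show.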
